A study of Rattus norvegicus with 90 samples.

Results

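Renal tube epithelial cells and cardiomyocytes from the Sprague-Dawley rat were both exposed to thioacetamide-S-oxide at 0.5 mM for 9 h, which was the high dose for the renal cells and the low dose for the cardiomyocytes. The question here is the difference in response. It is defined for each transcript as the change from vehicle to 0.5 mM in the renal cells minus the same change in the cardiomyocytes. The comparison uses 20 of the 90 libraries of the series, chosen by their labels, in 4 groups of 5: renal vehicle, renal 0.5 mM, cardiomyocyte vehicle and cardiomyocyte 0.5 mM. The features are the 40071 targets with Ensembl rat transcript identifiers. Per the labels, both cell types spent a further 18 h in culture ahead of the exposure to vehicle or compound. The renal cells were cryopreserved proximal tubular epithelial cells from a commercial supplier, and their vehicle was their own maintenance medium. The source and the medium of the cardiomyocytes are not given in the sources used here. Cell type, medium and source of the cells therefore cannot be told apart in this comparison. Nothing says that the 5 cultures of a group came from separate animals, so the p-values measure only the spread between these libraries.

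Thioacetamide is a liver toxicant that must be oxidized before it harms cells, and thioacetamide-S-oxide is the first product of that oxidation. A further oxidation gives a reactive S,S-dioxide that binds covalently to proteins and lipids. The epithelium of the proximal tubule takes up filtered solutes and holds enzymes of xenobiotic metabolism, whereas cardiomyocytes are the contractile cells of the heart. A dose label such as high or low names a different concentration in each cell type, and 0.5 mM is the concentration that these 2 cell types had in common.

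No transcript could be matched to a gene. The gene table at hand (assembly GRCr8, 47357 genes) lists RefSeq names only, and none of its entries could be paired with the 40071 Ensembl transcripts (0 matches). Transcripts are therefore given by identifier, marker genes of renal epithelium or cardiomyocytes could not be used to check the labelled cell types, and gene lists, functions and sequences are not described.

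Total estimated counts per library lay between 23108516 and 30970392 in renal vehicle, between 25102100 and 37837044 in renal 0.5 mM, between 19467515 and 27585600 in cardiomyocyte vehicle and between 17494079 and 61897142 in cardiomyocyte 0.5 mM. The median depth of the exposed cardiomyocyte libraries was 44401616, against 20965781 in their vehicle libraries. Transcripts took 90.1 to 94.6% of the estimated counts. The library MS-158, of the cardiomyocytes at 0.5 mM, stood apart from the other 19. It had 19177 transcripts with at least 1 count, whereas the others had 21189 to 24236. Its 100 most counted transcripts took 46.0% of the counts, against 22.5 to 26.6% elsewhere. The median Spearman correlation of its levels with those of its own group was 0.89, while every other library reached 0.98 to 0.99. Values are with all 20 libraries unless a sentence says that MS-158 was left out, and the main counts and differences are given both ways. No 2 libraries of the same group were identical.

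**Figure D1:**
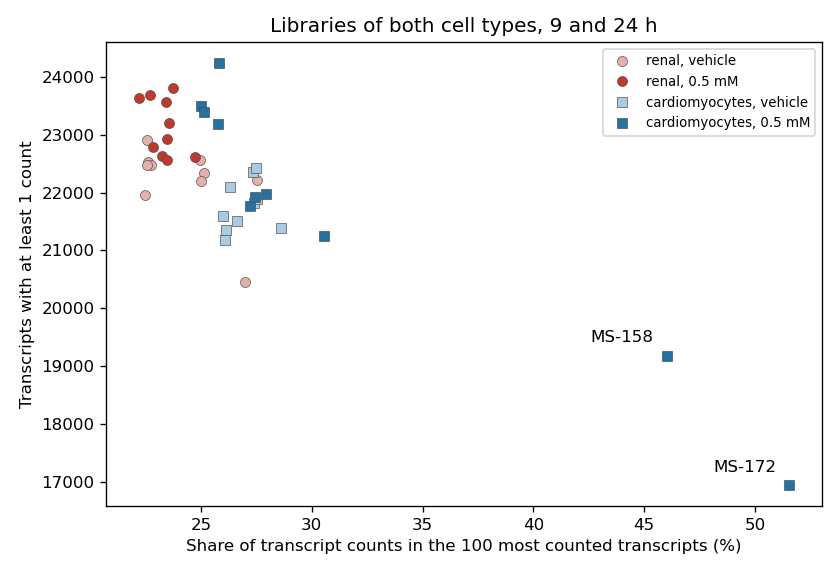
Each point is one library of either cell type at 9 or 24 h, with the share of its transcript counts in its 100 most counted transcripts (%) on the horizontal axis and the number of transcripts with at least 1 count on the vertical axis. MS-158 (46.0%, 19177 transcripts) and MS-172 (51.6%, 16942 transcripts), both cardiomyocytes at 0.5 mM, lie far to the lower right of all other libraries.

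The same concentration gave responses of unequal size or direction in the renal cells and the cardiomyocytes for part of the transcripts. The difference in response was called for 2733 of the 19227 transcripts tested, which is 14.2%. A call required an adjusted p of at most 0.05 (edgeR quasi-likelihood test of the interaction, Benjamini-Hochberg adjustment) and a difference of at least 0.41 on the natural-log scale, or 0.59 on the log2 scale. The renal response was higher than the cardiomyocyte response for 969 of them (5.04% of the transcripts tested) and lower for 1764 (9.17%), so that 35.5% of the calls were in the higher direction. The median size of the difference was 1.04 on the log2 scale among called transcripts and 0.38 among all transcripts tested. A called difference of at least 2-fold was found for 1443 transcripts and one of at least 8-fold for 192. These counts were 1691 and 237 without MS-158. In bulk RNA of a culture, fewer cells of a type and less RNA per cell cannot be told apart.

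Without MS-158, 3301 of 19492 transcripts were called (16.9%), of which 1235 were higher (6.34%) and 2066 lower (10.6%) in the renal response. Both fits called 2412 transcripts in common, all with the same sign. These are 88.3% of the calls of the fit with all libraries and 73.1% of the calls of the fit without MS-158. Among the 2412, the renal response was higher for 857, with a median difference of 1.15 in the fit without MS-158, and lower for 1555, with a median of -1.04. A difference of at least 4-fold was reached by 386 of them, 205 in the lower direction and the rest in the higher. Leaving out MS-158 moved the difference of 25 of the shared calls by more than 1 on the log2 scale. The 321 calls that were lost without MS-158 included 10 of at least 8-fold, and 889 calls were gained.

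**Figure D2:**
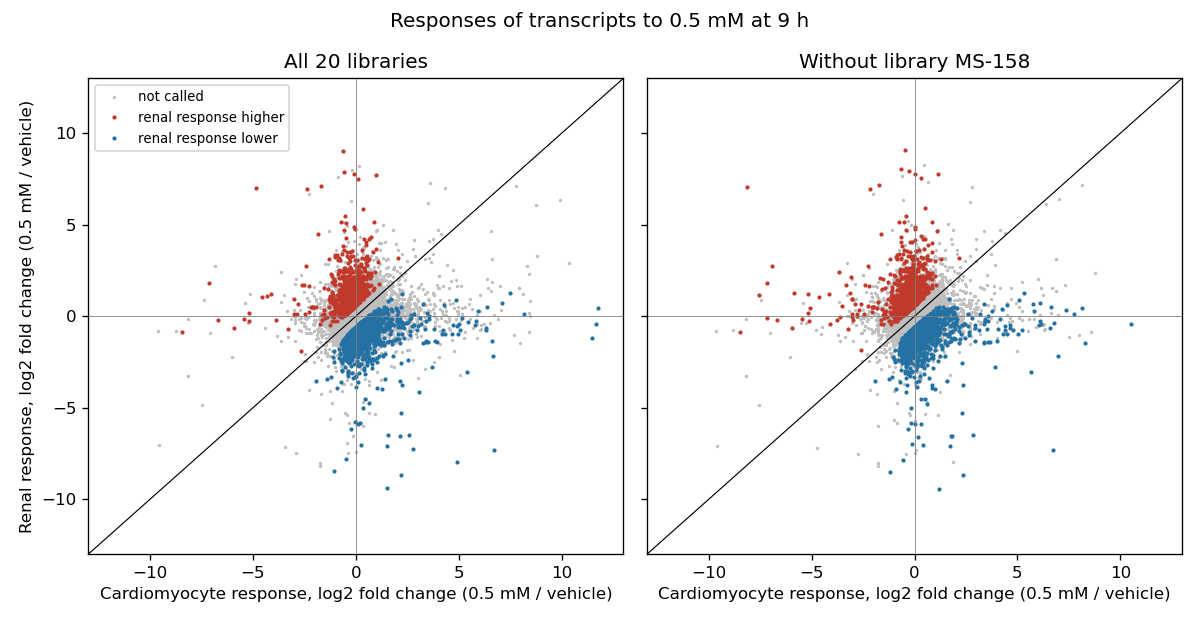
Each point is one transcript, with the log2 fold change of 0.5 mM over vehicle in cardiomyocytes on the horizontal axis and in renal cells on the vertical axis, for all 20 libraries (left) and without MS-158 (right). Points on the diagonal line responded equally, and the called transcripts lie along the vertical axis on both sides of 0, with fewer spread along the horizontal axis.

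The called transcripts can be grouped by which of the cell types had itself passed its test against vehicle. Among all 19227 transcripts tested, 6077 were past the test in the renal cells (14.1% rose and 17.5% fell) and 3032 in the cardiomyocytes (8.81% rose and 6.96% fell), and the classes are to be read against these shares. Of the 2733, 1013 fell in the renal cells and 592 rose there while the cardiomyocyte change was not past its test. In the reverse case, 239 rose in cardiomyocytes (8.74% of the calls) and 4.28% of the calls fell there, with a renal change that was not past its test. A further 5.63% of the calls moved the same way in both cell types and differed in size. Nearly all of these changed more in the renal cells, and 5 fell and 7 rose more in the cardiomyocytes. For 196 called transcripts neither response passed its own test. A change not past its test is not shown to be absent. Without MS-158, 9977 of all 19492 transcripts tested were past the test in the renal cells and 5314 in the cardiomyocytes. In the renal cells 24.2% rose and 27.0% fell, and in the cardiomyocytes 14.2% rose and 13.1% fell. Of the calls in that fit, 1105 fell and 697 rose in renal cells alone, which is 33.5 and 21.1% of the calls. The shares that rose and fell in cardiomyocytes alone were then 5.27 and 4.0%, 289 calls moved the same way, and 4.15% of the calls had neither response past its test.

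**Figure D3:**
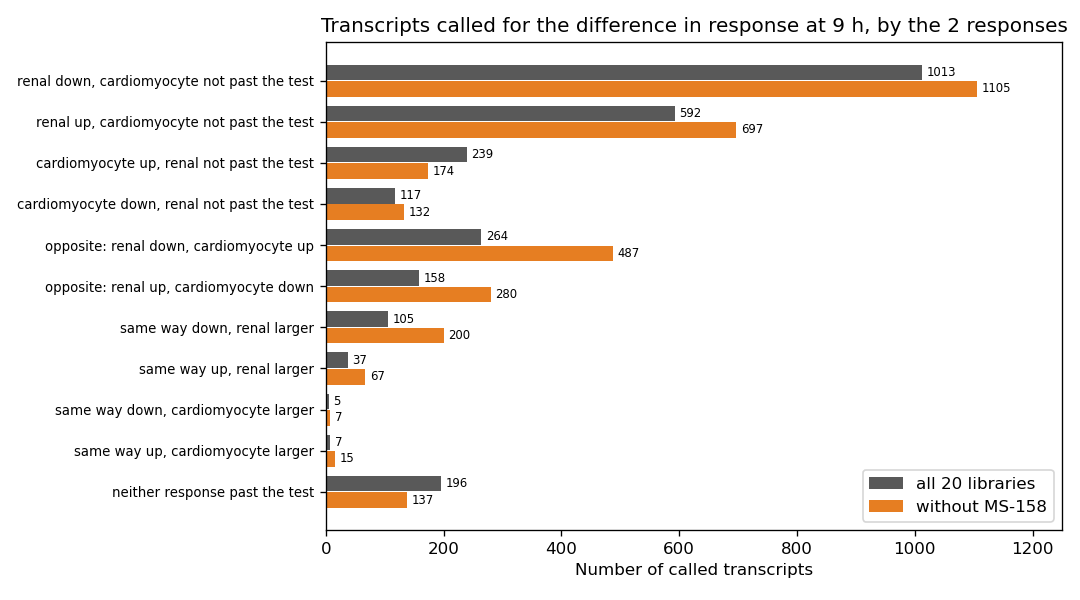
Bars give the number of called transcripts in each class of the renal and the cardiomyocyte response, with all 20 libraries in grey and without MS-158 in orange, on an axis that starts at 0. The class with a renal decrease alone past the test is the most frequent in both fits (1013 and 1105), and the opposite class with a renal decrease grows from 264 to 487 without MS-158.

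Responses in opposite directions, each past its own test and with the difference also called, were found for 422 transcripts (2.19% of those tested). Without the condition that the difference be called there were 551. Of the 551, 330 fell in the renal cells (1.72% of those tested) and 221 rose there (1.15%). In 264 of the 422 (62.6%) the transcript fell in the renal cells and rose in the cardiomyocytes, and in the remaining 37.4% it rose in the renal cells and fell in the cardiomyocytes. Without MS-158, 767 transcripts met all of these conditions (3.93%), 487 and 280 in these directions, and 1463 had opposite responses whether or not the difference was called. Of the 1463, 813 fell in the renal cells (4.17% of those tested) and 650 rose there (3.33%). The 2 fits had 389 opposite responses with a called difference in common, 244 with a renal decrease and the rest with a renal increase. In the opposite class with a renal decrease, the median response was -0.62 in the renal cells and 0.41 in the cardiomyocytes on the log2 scale, in a fit of 30 libraries that also held the other doses of 9 h. In the class with a renal increase, the medians were 0.56 and -0.44. Without MS-158 they were -0.57 and 0.35 in the first class and 0.58 and -0.37 in the second, so that each median change was less than 2-fold.

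Across the 19227 transcripts tested, the renal and the cardiomyocyte responses had a Pearson correlation of 0.10 and a Spearman correlation of 0.12. Over the 14257 transcripts with at least 1 CPM (counts scaled to library size) in the vehicle libraries of both cell types at 24 h, the values were 0.15 and 0.14. The correlations without MS-158 were 0.08 and 0.10 over all transcripts and 0.15 and 0.11 over those expressed in both. Transcripts are not independent replicates, and the responses were scaled together but share no library. The median size of the response among transcripts expressed in both was 0.24 in the renal cells, and in the cardiomyocytes 0.21 with MS-158 and 0.14 without it.

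The transcripts were also divided by their vehicle levels at 24 h, which were measured in libraries that the 9 h comparison does not use. A level below 1 CPM in the vehicle libraries of a cell type does not mean that a transcript cannot change there. Among the 14257 expressed in both cell types, 2070 were called, or 14.5%, with 662 higher and 1408 lower in the renal response. The called share was 13.9% among 1472 transcripts expressed only in renal vehicle and 19.3% among 1164 expressed only in cardiomyocyte vehicle. It was 9.98% among the 2334 below 1 CPM in both. Without MS-158 the shares were 16.4, 20.5, 25.2 and 13.9% in the same order. Of the 422 transcripts with opposite responses, 387 were expressed in both, and without MS-158 this was 693 of 767. By transcript length, the called share was 10.9% in the lowest quartile (up to 1374 bases) and 16.4% in the highest (from 3365 bases), and 14.2 and 18.8% without MS-158. Among transcripts expressed in both, the highest quartile of level had the lowest called share, at 12.3%, and at 12.2% without MS-158.

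The separation of single libraries was also counted. Each exposed library was expressed as its difference from the vehicle mean of its own cell type. All 5 exposed renal libraries lay on one side of all 5 exposed cardiomyocyte libraries for 2446 of the 2733 called transcripts (89.5%). The same separation held for 6171 of all 19227 transcripts tested (32.1%), and 14.2% of all transcripts were called. Without MS-158, which leaves 4 exposed cardiomyocyte libraries, the separation held for 3132 of 3301 called transcripts (94.9%) and for 9339 of 19492 tested (47.9%).

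A rule based on size and on this separation selected 4 transcripts for a closer description. In each direction these are the called transcript with the largest difference and the one with the largest difference among opposite responses. They were taken from 491 candidates with a higher and 952 with a lower renal response, which had a mean of at least 3 on the log2 CPM scale and at least 1 CPM in the 24 h vehicle libraries of both cell types. Of these candidates, 25.7% and 22.7% had opposite responses. Without MS-158 there were 525 and 1108 candidates, of which 41.1% and 34.7% had opposite responses. Levels are given as TMM-scaled CPM, and as TPM, which accounts for transcript length, where levels of different transcripts are set side by side.

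ENSRNOT00000010627, a transcript of 3807 bases, had the largest difference in the higher direction. It had 2.12, 1.40, 1.27, 1.46 and 1.62 CPM in the renal vehicle libraries and 13.8, 14.2, 12.3, 16.5 and 20.3 CPM in the renal 0.5 mM libraries. In cardiomyocytes, the vehicle libraries had 830, 838, 833, 841 and 799 CPM and the 0.5 mM libraries 814, 701, 551, 701 and 725 CPM, of which 551 CPM belonged to MS-158. The exposed renal libraries were all above the renal vehicle libraries, and the cardiomyocyte groups overlapped. The renal response was 3.30 on the log2 scale, the cardiomyocyte response was -0.25 (adjusted p = 0.18), and the difference was 3.54 with a standard error of 0.19 (edgeR, adjusted p = 2.387e-10). Without MS-158 it was 3.48. The vehicle level was 569.7-fold higher in cardiomyocytes than in renal cells (ratio of medians), and the exposed renal level reached 1.71% of the cardiomyocyte vehicle level. In TPM, the medians were 0.561 in renal vehicle, 5.57 in renal 0.5 mM and 291 in cardiomyocyte vehicle. A transcript abundant in cardiomyocytes thus rose in renal cells from a low level. In the 24 h vehicle libraries, 43 tested transcripts had at least 100 CPM in cardiomyocytes and a level at least 100-fold lower in renal cells. Of these, 9 rose (20.9%) and 10 fell (23.3%) in renal cells at 9 h, against 14.1 and 17.5% of all transcripts tested. That set was defined after the data were seen.

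ENSRNOT00000083472, with 925 bases, had the largest difference in the higher direction among opposite responses. Its levels were 12.9, 13.5, 11.0, 12.4 and 12.9 CPM in renal vehicle and 51.4, 44.3, 43.5, 45.6 and 44.3 CPM in renal 0.5 mM. They were 22.5, 22.9, 23.7, 16.0 and 24.3 CPM in cardiomyocyte vehicle and 8.97, 10.6, 12.9, 7.24 and 9.47 CPM in cardiomyocyte 0.5 mM, with 12.9 CPM in MS-158. Exposed and vehicle libraries did not overlap in either cell type, and the order of the cell types was reversed by exposure. The response was 1.87 in the renal cells and -1.17 in the cardiomyocytes. The difference of 3.04 had a standard error of 0.18 (edgeR, adjusted p = 6.735e-10), and it was 3.15 without MS-158. The estimated counts of this transcript were not whole numbers, so it shares reads with another target and its level depends on how they were divided.

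ENSRNOT00000008535, with 3333 bases, had the largest difference in the lower direction among opposite responses. It had 26.6, 27.6, 26.2, 24.2 and 24.9 CPM in renal vehicle and 4.84, 7.99, 6.44, 5.14 and 4.48 CPM in renal 0.5 mM. Its levels in cardiomyocytes were far lower, at 0.242, 0.467, 0.247, 0.579 and 0.563 CPM in vehicle and 1.16, 0.722, 0.378, 0.966 and 0.988 CPM at 0.5 mM, with 0.378 CPM in MS-158. The renal groups were separated, whereas the exposed cardiomyocyte libraries lay above all vehicle libraries except for MS-158. These cardiomyocyte levels rest on 5 to 11 estimated counts per vehicle library and 4 to 65 per exposed library. The response was -2.16 in the renal cells and 1.11 in the cardiomyocytes (adjusted p = 0.010), and the difference was -3.27 with a standard error of 0.34 (edgeR, adjusted p = 8.554e-07). Without MS-158 the difference was -3.40.

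ENSRNOT00000038275, with 623 bases, had the largest difference in the lower direction, and both this value and its place among the candidates rest on MS-158. Its mean level was 5.69 on the log2 CPM scale with MS-158 and 1.40 without it, which is below the limit of 3. Its levels at 0.5 mM in cardiomyocytes were 3.42, 4.30, 3.33 and 2.07 CPM in the other libraries and 997 CPM in MS-158. They were 1.33, 3.33, 2.42, 3.30 and 2.25 CPM in cardiomyocyte vehicle, 3.35, 2.92, 2.43, 2.59 and 2.58 CPM in renal vehicle and 1.98, 1.86, 0.595, 2.20 and 1.54 CPM in renal 0.5 mM. The difference was -7.09 with a standard error of 2.08 (edgeR, adjusted p = 0.018) and became -1.14 without MS-158 (adjusted p = 0.037). The estimated counts of this transcript were also not whole.

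**Figure D4:**
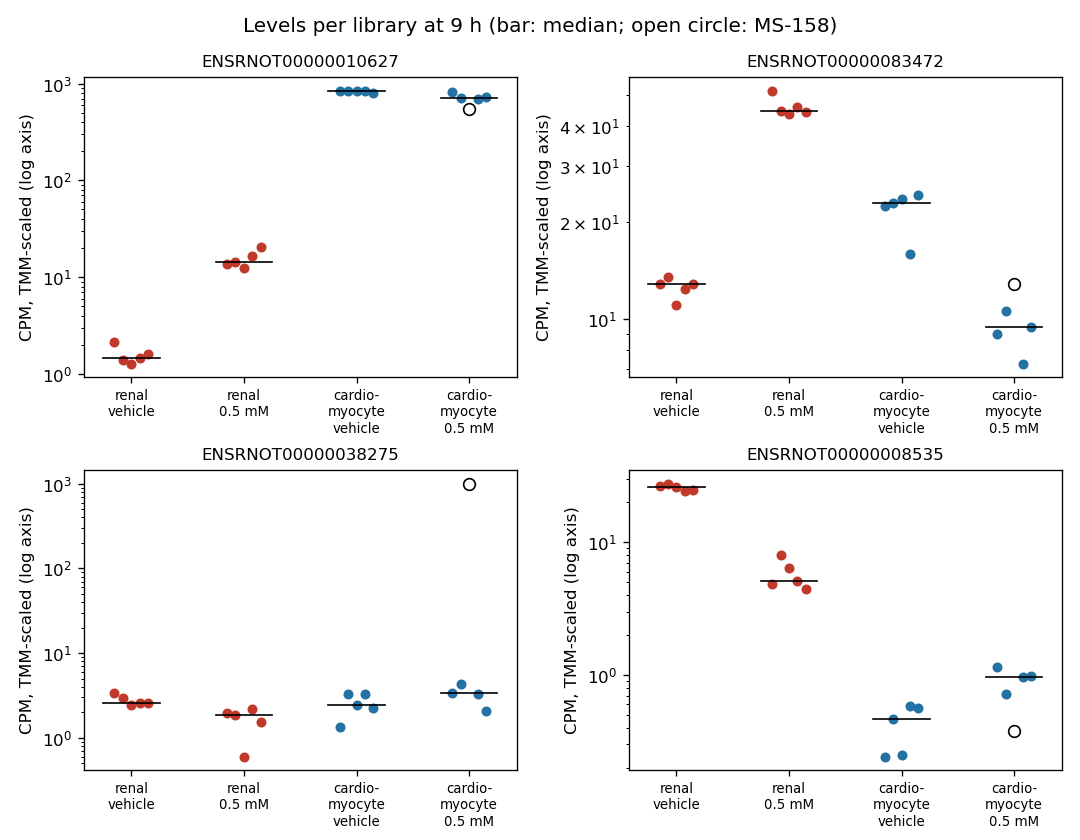
Points give the TMM-scaled CPM of the 4 described transcripts in each library at 9 h on a log axis, in 4 groups of 5 libraries, with a bar at the median and an open circle for MS-158. Renal 0.5 mM libraries lie above renal vehicle for ENSRNOT00000010627 and ENSRNOT00000083472 and below it for ENSRNOT00000008535, and for ENSRNOT00000038275 the open circle at 997 CPM is far above the other libraries.

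The same difference in response can be measured in other cultures at 24 h, for which the 4 groups of 5 libraries share none with the 9 h comparison. There, 3276 of 19129 transcripts were called (17.1%), 1406 with a higher renal response (7.35%) and 1870 with a lower one (9.78%). One of these libraries, MS-172 of the cardiomyocytes at 0.5 mM, stood apart in the same measures as MS-158. Its 100 most counted transcripts took 51.6% of the counts, against 22.2 to 30.6% in the others. Deviations of MS-172 and MS-158 from the other libraries of their groups had a Pearson correlation of 0.71 across 18773 transcripts. For the other pairs of exposed cardiomyocyte libraries of 9 and 24 h the correlation lay between -0.66 and 0.61, where MS-158 or MS-172 is in most cases among the libraries that a deviation is taken from. MS-158 had 222 transcripts at least 8-fold above its group and MS-172 had 211, of which 140 were shared, or 63.1% and 66.4%. Without MS-172, 3897 of 19412 transcripts were called at 24 h (20.1%), 1768 with a higher (9.11%) and 2129 with a lower renal response (11%).

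Most differences found at 9 h kept their sign at 24 h. Of the 2733 calls, 2694 were tested at 24 h and 2302 of them (85.4%) had the same sign there, against 70.2% of all 18773 transcripts tested at both times. Of the same 2694, 1245 were also called at 24 h, 1192 with the same and 53 with the opposite sign. Without MS-158 and MS-172, 2685 of 3238 calls had the same sign (82.9%), against 68.0% of all transcripts, and 1436 of the 1526 called at both times had the same sign.

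At 24 h, the changes of these transcripts were seen in the renal libraries and were near 0 in most cardiomyocyte libraries. The transcripts with a higher renal response at 9 h had a mean change of 0.505 to 0.628 on the log2 CPM scale in the 5 exposed renal libraries of 24 h. In the exposed cardiomyocyte libraries the mean change of the same transcripts was -0.058 to -0.006, apart from MS-172 with -0.498. The transcripts with a lower renal response had changes of -0.712 to -0.575 in the renal libraries and of -0.014 to 0.086 in the cardiomyocyte libraries, MS-172 included. For calls made without MS-158, the renal ranges were 0.521 to 0.600 and -0.678 to -0.602. The cardiomyocyte changes in that set were within 0.02 of 0 apart from MS-172, with -0.312 and -0.328.

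**Figure D5:**
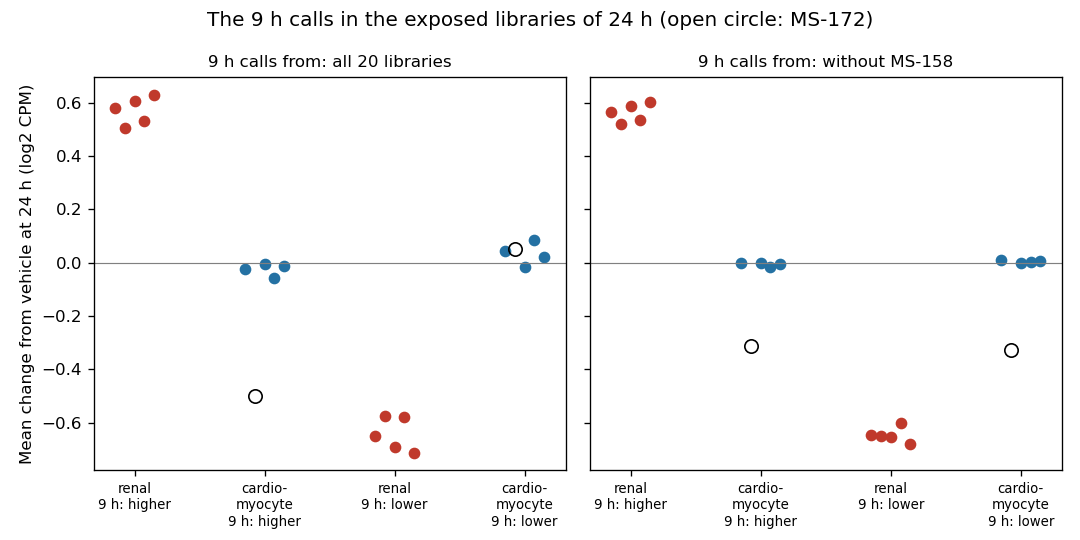
Points give, for each exposed library at 24 h, the mean change from vehicle (log2 CPM) of the transcripts called at 9 h with a higher or a lower renal response, from all 20 libraries (left) or without MS-158 (right), with an open circle for MS-172. Renal libraries lie between 0.505 and 0.628 or between -0.712 and -0.575 in the left panel, and cardiomyocyte libraries other than MS-172 lie near 0.

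At 24 h, few transcripts of any kind were past the test in cardiomyocytes. Without MS-172, 1.85% of the 19412 tested rose and 0.974% fell there, whereas 25.2% rose and 24.3% fell in the renal cells. Without MS-158 and MS-172, 487 transcripts had fallen in renal cells and risen in cardiomyocytes at 9 h. At 24 h, 363 of these (74.5%) fell again in the renal cells and 19 rose, whereas 22 (4.52%) rose again in the cardiomyocytes and 7 (1.44%) fell. Of the 280 with the opposite order, 63.2% rose again in the renal cells and 34 fell, and 7 (2.5%) fell again in the cardiomyocytes and 8 (2.86%) rose. The same opposite responses at 24 h were found for 17 of the 487 (3.49%) and 5 of the 280 (1.79%), against 0.489% and 0.216% of all transcripts tested at 24 h. With all libraries, 7 of the 264 with a renal decrease and 0 of those with a renal increase were in the same class at 24 h, against 0.167% and 0.042% of all transcripts. The median change at 24 h was -0.79 in the renal cells and 0.05 in the cardiomyocytes for the class with a renal decrease, and 0.43 and -0.12 for the other class. Without MS-158 and MS-172 these medians were -0.66, 0.02, 0.49 and -0.05. Of the 592 called transcripts that had risen in renal cells alone, 573 were tested at 24 h and 355 of them (61.95%) rose again in the renal cells. Of the 1013 that had fallen there alone, 1001 were tested and 677 (67.6%) fell again. With all libraries, 18.0% of the 19129 transcripts tested at 24 h rose and 19.2% fell in the renal cells. Without MS-158 and MS-172, 433 of 667 (64.9%) rose again and 729 of 1090 (66.9%) fell again.

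The sign at 24 h was also counted for the transcripts past the test in cardiomyocytes alone. Of 300 such transcripts tested at 24 h, 192 had the same sign of difference (64%), with 69.6% for those that had risen and 56.6% for those that had fallen, against 68.0% of all transcripts. These counts are without MS-158 and MS-172. With all libraries, 264 of 352 had the same sign (75%), against 70.2% of all transcripts.

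Of the described transcripts, ENSRNOT00000083472 and ENSRNOT00000008535 differed in the same direction at 24 h and ENSRNOT00000010627 did not pass the test. For ENSRNOT00000083472 the renal level was 10.3 ± 1.26 CPM in vehicle and 89.8 ± 4.62 CPM at 0.5 mM (SD, n = 5), and the difference in response was 2.95, or 3.24 without MS-172. The cardiomyocyte response was 0.17, or -0.11 without MS-172, and was not past its test. ENSRNOT00000008535 had 50.0 ± 7.15 CPM in renal vehicle and 1.73 ± 0.25 CPM in renal 0.5 mM, with a difference of -4.21, or -4.35 without MS-172. Its cardiomyocyte response was -0.64 (adjusted p = 0.12), so the sign of 9 h was not repeated. ENSRNOT00000010627 had 7.78 ± 1.13 CPM in renal vehicle and 6.67 ± 0.86 CPM in renal 0.5 mM, and its difference was 0.14 (edgeR, adjusted p = 0.67). Its renal vehicle level at 24 h was thus above that at 9 h, at 1.57 ± 0.33 CPM. ENSRNOT00000038275 had a difference of -6.57 at 24 h with MS-172, which held 1002 CPM, and of -0.23 without it (adjusted p = 0.91).

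The other doses at 9 h are set side by side, since they share the vehicle libraries and differ in concentration. The values come from the fit of 30 libraries, or that fit without MS-158. The transcripts were chosen by their changes at 0.5 mM, so a smaller median at another dose follows in part from that choice. Over all transcripts tested, the medians were between -0.014 and 0.014 at each dose. For the transcripts with a higher renal response, the median change was 0.13 in renal cells at 0.125 mM and 0.80 at 0.5 mM, and in cardiomyocytes -0.28 at 0.5 mM and -0.02 at 1.5 mM. Without MS-158 these medians were 0.14, 0.83, -0.22 and -0.02. For those with a lower renal response the medians were -0.21 and -0.80 in renal cells and 0.25 and -0.07 in cardiomyocytes, and without MS-158 -0.25, -0.81, 0.20 and -0.10. In the opposite class with a renal decrease, the cardiomyocyte median was 0.41 at 0.5 mM and -0.02 at 1.5 mM, and in the class with a renal increase it was -0.44 and -0.17. Without MS-158 it was 0.35 and 0.01 in the former and -0.37 and -0.15 in the latter. The increase of ENSRNOT00000010627 in renal cells was 2.98 at 0.125 mM. For ENSRNOT00000083472 the estimates were -0.44 in renal cells at 0.125 mM and 0.43 in cardiomyocytes at 1.5 mM, both of the other sign than at 0.5 mM. ENSRNOT00000008535 changed by -0.75 in renal cells at 0.125 mM and by -2.08 in cardiomyocytes at 1.5 mM, where it had risen at 0.5 mM. Its cardiomyocyte values rest on 5 to 11 estimated counts per vehicle library. Changes of these transcripts at the other doses are given without a standard error or test. Leaving out MS-158 gave 2.98 for the first transcript, -0.45 and 0.43 for the second and -0.76 and -2.08 for the third.

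The genomic intervals listed beside the transcripts also differed in response. Of 8822 intervals tested, 896 were called (10.2%), 464 with a higher and 432 with a lower renal response. Without MS-158, 1371 of 9125 were called (15%), 692 higher and 679 lower, and 861 were called in both fits. The intervals are not described in the sources used here, and how they relate to the transcripts was not tested.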

How the data were processed

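Poly-A-enriched RNA was sequenced in paired 150-bp reads from a stranded kit. For each library, the authors deposited the estimated counts and the TPM of Kallisto 0.42.4 for each target of the Ensembl transcriptome (Rnor_6.0), beside 25095 genomic intervals. An estimated count divides a read among compatible transcripts, so it need not be whole, and a value within 1e-06 of a whole number was called whole. The study's own Sleuth fits and the remaining 40 libraries were not used here.

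Estimated counts were rounded. The 20 libraries at 9 h were fitted together with edgeR 4.0.16 under R 4.3.3, after its filterByExpr step and TMM scaling (glmQLFit, and glmQLFTest of the interaction), with Benjamini-Hochberg adjustment over all transcripts tested. The thresholds were those of the study (adjusted p of 0.05, 0.41 on the natural-log scale). The 24 h libraries and the intervals were fitted in the same way, and changes at other doses came from one fit of 30 libraries. Alternatives were DESeq2 1.42.0, limma 3.58.1 on log2 CPM with a prior count of 0.5, other scalings, filters and thresholds, and leaving out each library. The whole-count and 24 h alternatives were added after seeing the data, as was leaving out MS-158 and MS-172 together.

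The comparison, the thresholds and the rule for the described transcripts were chosen with earlier results of these data known. That rule took, in each direction, the largest difference among called transcripts with the stated levels and separated libraries, and the largest among opposite responses. On simulated data of 18774 transcripts, the fit called 41 of 66 differences of 4-fold, 16 of 56 of 2-fold and 3 of 78 of 1.5-fold, with 0 in the wrong direction and 3 false calls. Of these differences, 63, 53 and 77 were in transcripts that passed the filter. A 1.5-fold difference lies just below the size that a call requires, so few could be called. The simulated counts took their spread from the fit with all libraries. They held no deviating library and no other response, so the real data may differ. Depths of 17494079 to 61897142 estimated counts leave little counting error in expressed transcripts, and transcripts with few counts are limited by depth.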

Additional observations from a re-analysis of the deposited data

Results flagged for a closer look

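In 14 of 56 groups of 5 values tested with Dixon's criterion, 1 library lay apart from the others. A rate of 1 in 20 would give 2.8 if the groups were independent. They are not, since several measures of the same library are linked. The described transcripts were also selected in these libraries, ENSRNOT00000038275 through MS-158. The count is therefore a description and not a test against chance. At 9 h, MS-158 of the cardiomyocytes at 0.5 mM lay apart in transcripts detected (19177), in TMM factor (0.654, against 0.972 to 1.06 elsewhere) and in the share of its 100 most counted transcripts (46.0%). At 24 h, MS-172 of the cardiomyocytes at 0.5 mM lay apart in the same measures, with 16942 transcripts, a TMM factor of 0.639 and 51.6%. Among 24 h vehicle libraries, MS-137 of the renal cells had 11415878 estimated counts and 20458 transcripts detected. In cardiomyocyte vehicle at 24 h, MS-169 had 92.5% of its counts on transcripts and MS-168 had 28.6% of them in its 100 most counted transcripts.

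Among the described transcripts, ENSRNOT00000038275 had 997 CPM in MS-158. Smaller separations were found for ENSRNOT00000010627 (799 CPM in cardiomyocyte vehicle MS-155) and for ENSRNOT00000083472 (51.4 CPM in renal 0.5 mM MS-131 and 16.0 CPM in cardiomyocyte vehicle MS-154).

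The responses of both cell types to 0.5 mM differed by the test of the interaction for 2733 transcripts. On the log2 scale the difference was 3.54 for ENSRNOT00000010627, 3.04 for ENSRNOT00000083472 and -3.27 for ENSRNOT00000008535. It was -7.09 for ENSRNOT00000038275, which became -1.14 without MS-158.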

How the results depend on the processing

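No paired analysis was possible because the replicate numbers in the labels are not shared between the groups. The number of calls was 4491 with no threshold on size (1850 higher and 2641 lower), 1443 at 2-fold (499 and 944) and 1467 of 7414 when only transcripts with whole counts were fitted (530 and 937). For transcripts expressed in both cell types these counts were 3827, 822 and 1034. Leaving out 1 library at a time gave 2506 to 3301 calls, 1912 to 2344 among transcripts expressed in both, and 336 to 767 opposite responses. The highest of these 3 values were all reached without MS-158. At 2-fold there were 224 opposite responses. The share of calls in the higher direction was 38.0% with DESeq2, 40.3% with upper-quartile scaling, 37.8% with TMM within each cell type, 38.2% with limma and 41.2% with no threshold on size, and 34.5 to 37.4% with 1 library left out. The same sign at 24 h was found for 83.6% of the calls with no threshold on size, for 81.7 to 86.1% with 1 library left out and for 82.9% without MS-158 and MS-172. The correlation of the responses was 0.046 with no filter beyond 1 count and 0.076 to 0.11 with 1 library left out. For ENSRNOT00000038275, limma gave -2.93 (adjusted p = 0.22), DESeq2 gave no adjusted p, and the range with 1 library left out was -7.41 to -1.14. The other ranges were 3.42 to 3.66 for ENSRNOT00000010627, 2.95 to 3.15 for ENSRNOT00000083472 and -3.42 to -3.11 for ENSRNOT00000008535, each past the threshold in every alternative that gave a value. The cause of these movements was not tested, apart from the fewer or more transcripts that a threshold or a filter admits by construction.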
